A study of Mus musculus with 14 samples.

Results

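The renin-angiotensin-aldosterone genes examined here were 8 genes chosen by symbol, namely Agt, Ace, Agtr1a, Agtr1b, Agtr2, Nr3c2, Mas1 and Atp6ap2, out of 49315 genes in the count table. Each symbol matched 1 gene. Their RNA was measured by RNA-seq of total RNA from hearts of male WT C57BL/6 mice on standard chow, in 4 libraries at 68 weeks of age and 4 libraries at 12 weeks. H3K27me3, a repressive histone modification made by PRC2, was profiled by CUT&RUN at both ages, with 2 H3K27me3 libraries and 1 input per age. The series title concerns dietary glutamine, and samples from a diet experiment were not analysed here. Whether each library is 1 mouse is not stated in the labels, so the p-values below reflect library-to-library spread, which may be technical.

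In this hormone system the protease renin cuts angiotensinogen, the product of Agt, into angiotensin I, and angiotensin-converting enzyme, the product of Ace, trims that peptide to angiotensin II. Angiotensin II acts on the AT1 receptor, which rodents encode in a pair of genes, Agtr1a and Agtr1b, and on the AT2 receptor, encoded by Agtr2. It raises blood pressure, and it stimulates the adrenal gland to release aldosterone, which binds the mineralocorticoid receptor encoded by Nr3c2. A shorter peptide, angiotensin 1-7, is linked to the receptor encoded by Mas1. Atp6ap2 encodes the prorenin receptor, which is also an accessory protein of the vacuolar proton pump. In the heart the pathway is known for its links to hypertrophy and fibrosis and is a target of blood-pressure drugs.

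RefSeq promoters of the GRCm38.p6 build, each covering 250 bases before to 50 after a start, were found for 7 of the 8 genes. Agtr1a is the other. The sequences of 4 are shown as examples of promoters rich and poor in the dinucleotide CG, a sequence feature in which the members differ widely. CG dinucleotides are in capitals. Ace (chr11:105967698-105967997, plus strand) and Atp6ap2 (chrX:12587509-12587808, plus strand) are the CG-rich examples, and Agt (chr8:124569657-124569956, minus strand) and Agtr1b (chr3:20367128-20367427, minus strand) the CG-poor ones.
Ace: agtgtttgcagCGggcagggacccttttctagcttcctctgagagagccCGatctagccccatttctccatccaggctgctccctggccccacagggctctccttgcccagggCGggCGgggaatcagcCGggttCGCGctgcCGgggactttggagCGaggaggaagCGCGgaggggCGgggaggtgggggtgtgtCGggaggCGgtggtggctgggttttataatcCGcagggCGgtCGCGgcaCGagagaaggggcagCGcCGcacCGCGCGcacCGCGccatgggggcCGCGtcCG
Atp6ap2: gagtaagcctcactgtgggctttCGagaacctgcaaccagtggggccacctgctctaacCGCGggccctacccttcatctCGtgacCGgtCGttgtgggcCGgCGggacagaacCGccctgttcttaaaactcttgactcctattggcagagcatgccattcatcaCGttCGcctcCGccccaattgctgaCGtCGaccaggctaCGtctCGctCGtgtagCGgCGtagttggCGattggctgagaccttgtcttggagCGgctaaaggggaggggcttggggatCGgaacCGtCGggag
Agt: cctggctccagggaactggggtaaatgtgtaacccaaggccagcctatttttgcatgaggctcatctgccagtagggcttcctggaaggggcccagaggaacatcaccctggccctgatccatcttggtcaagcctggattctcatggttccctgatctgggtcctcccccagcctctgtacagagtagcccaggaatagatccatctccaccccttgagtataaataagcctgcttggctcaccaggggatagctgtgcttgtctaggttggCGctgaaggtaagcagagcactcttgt
Agtr1b: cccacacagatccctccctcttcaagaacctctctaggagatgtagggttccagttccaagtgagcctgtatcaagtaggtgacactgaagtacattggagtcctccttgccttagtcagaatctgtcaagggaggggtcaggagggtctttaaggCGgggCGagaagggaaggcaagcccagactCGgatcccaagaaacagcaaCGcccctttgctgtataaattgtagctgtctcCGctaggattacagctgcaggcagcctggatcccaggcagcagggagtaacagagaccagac

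The window of Ace held 29 CG, that of Atp6ap2 24 and that of Nr3c2 17, more than 87.1%, 80.0% and 68.6% of the 32851 windows in the table. Agtr1b and Agtr2 had 5 CG each (more than 38.0% of windows), Mas1 had 2 (14.1%) and Agt had 1 (5.43%). Per kilobase of exon, the 3 members with the most CG (Ace, Atp6ap2 and Nr3c2) were each above the 4 with 1 to 5 CG in 8 of 8 libraries. Within those 4 the order was not that of CG, as Agt, with the fewest, was the highest in 8 of 8 libraries. The libraries repeat the same few genes, so they do not replicate this comparison. Levels are given below. Agtr1a, with no promoter here, is outside this comparison, though its level was close to that of Ace. The median was 19 CG for genes tested here, above the 17 of Nr3c2, and 3 CG for genes of the count table that were too low to test. The letters TATAAA, searched on both strands, began at position -30 relative to the start in Agt and -31 in Agtr1b, and were found on the opposite strand in the window of Ace. They occurred in 13.6% of all windows and were not in the windows of Nr3c2, Mas1, Agtr2 and Atp6ap2. RefSeq also lists a start inside Ace, with 2 CG in its window (chr11:105974939-105975238). The counts are per gene and do not separate RNAs from the 2 starts.

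The 68-week libraries held 28842059 to 34599121 counts each and the 12-week libraries 23599296 to 31662601. Levels are given as CPM, the count per 1e6 of the TMM-normalized library size, and levels of different genes are compared as CPM per kilobase of exon. The 12 cardiomyocyte markers summed to 90300 to 97160 CPM at 68 weeks and 84430 to 93900 CPM at 12 weeks, and Myh6 alone averaged 22440 CPM at 68 weeks and 21730 CPM at 12 weeks. Transcripts of other tissues differed between libraries. The 20 airway markers, all with counts, together made 30.6, 20.2, 1287 and 27.7 CPM at 68 weeks (replicates 1 to 4) and 1857, 1040, 636 and 64.9 CPM at 12 weeks (replicates 1 to 4). The 12 white adipocyte markers summed to 629 to 871 CPM at 68 weeks and 985 to 1328 CPM at 12 weeks. Of the 12, 6 were called lower at 68 weeks by edgeR, against 1.22% of all genes tested. The adipocyte sums of the ages did not overlap, so fits with white adipocyte markers as a covariate cannot separate age from fat transcripts. Fewer cells of a type and less RNA per cell cannot be told apart in whole-heart RNA.

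No renin-angiotensin-aldosterone gene passed the test for a difference between 68 and 12 weeks. Of the 8 genes, 6 passed the filter on low counts and were tested by edgeR, and 0 of the 6 were called at an adjusted p of 0.05, against 2.83% of the 15947 genes tested (256 higher and 195 lower, or 176 and 248 when scaled by library size alone). By DESeq2 0 of the 6 were called as well, against 6.13% of 16415 genes with an adjusted p, or 6.28% when DESeq2 was run on the genes edgeR tested. At an unadjusted p under 0.05, 1 of the 6 passed, Agtr1a, against 19.0% of all genes. In 0 of the 6 were the CPM of the ages free of overlap, against 12.1% of all genes. The log2 fold change of 68 minus 12 weeks was positive in 3 and negative in 3, with a median of 0.019, beside a median of -0.0082 over all genes tested.

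**Figure D1:**
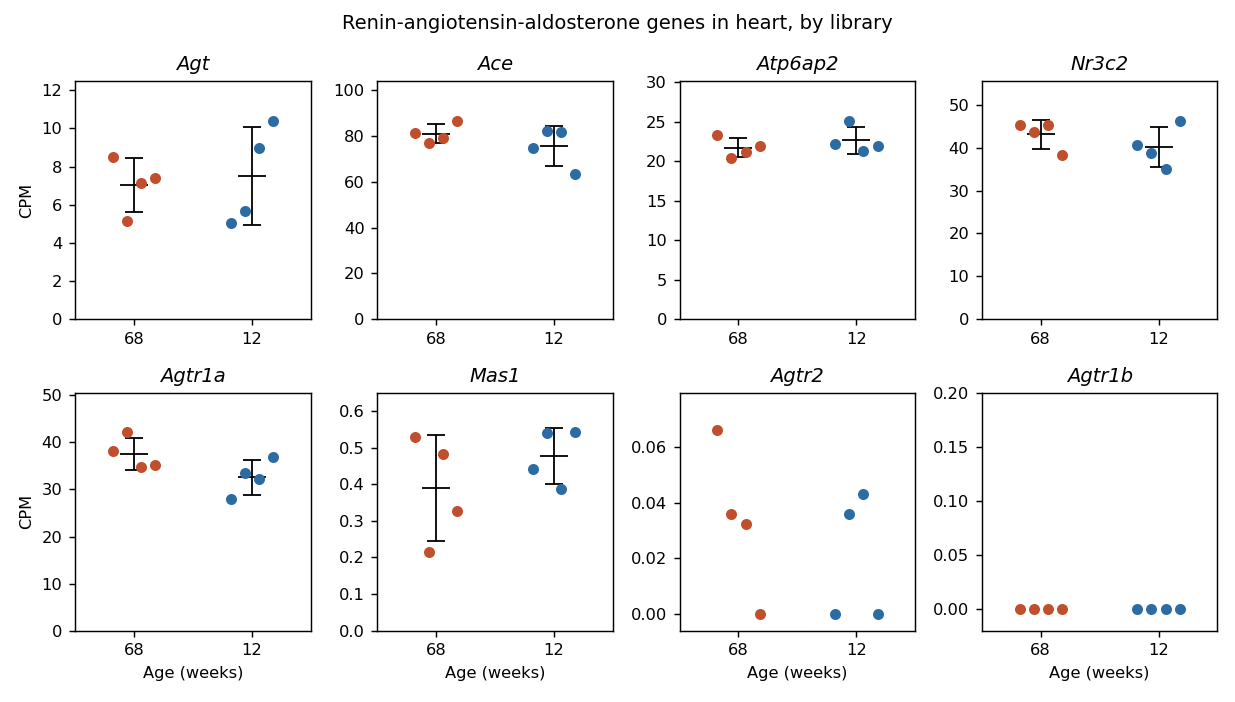
CPM (y axis, with its own scale in each panel) of the 8 genes in 4 libraries at 68 weeks (red) and 4 at 12 weeks (blue), with bars for the mean and SD except in Agtr2 and Agtr1b, which had 0 to 2 counts per library. The ages overlap in every panel, and Agtr1b lies at 0 throughout.

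The ligand precursor gene Agt (ENSMUSG00000031980, chromosome 8, 124556534 to 124569706, mm10 by label) varied most between libraries of 1 age among the 5 best-measured members. It was at 8.48, 5.12, 7.12 and 7.38 CPM in 68-week replicates 1 to 4, against 5.04, 5.67, 8.95 and 10.4 CPM in 12-week replicates 1 to 4. Both ages thus held libraries near 5 CPM and libraries above 8 CPM. The mean was 7.02 ± 1.40 CPM at 68 weeks and 7.52 ± 2.58 CPM at 12 weeks (SD, n = 4 each), and the log2 fold change was -0.089 ± 0.24 (SE, adjusted p = 0.875, edgeR). Its sign depended on single libraries, being 0.036 without 68-week replicate 2, 0.0043 without 12-week replicate 3 and 0.11 without 12-week replicate 4. The 95% interval, -0.62 to 0.45 on the log2 scale, runs from 0.649-fold to 1.36-fold. With airway markers as a covariate the log2 fold change was -0.25, and with white adipocyte markers 0.046. Among the 4 airway-poorest libraries, 3 at 68 weeks and 1 at 12 weeks (replicate 4), it was -0.57. Among the 4 airway-richest, 1 at 68 weeks (replicate 3) and 3 at 12 weeks, it was 0.13. Each split thus rests on 1 library at 1 of the ages, here and for the genes below. The 6 atrial markers together made 3889, 1122, 2961 and 2098 CPM in 68-week replicates 1 to 4, so that Agt and these markers were both highest in replicate 1 and both lowest in replicate 2. In 12-week replicates 1 to 4 the atrial sum was 1968, 1594, 2702 and 2777 CPM. Both were highest in 12-week replicate 4, but Agt was lowest in replicate 1 and the atrial sum in replicate 2. Over all 8 libraries, r of Agt was 0.769 with the log2 atrial sum. It was -0.795 with the log2 sum of pericyte and smooth muscle markers. The part of atrial tissue or of other cell types in the spread of Agt was not tested.

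Ace (ENSMUSG00000020681, chromosome 11, 105967945 to 105989964), which encodes the enzyme that makes angiotensin II and is known as an endothelial gene, was at 81.3, 77.0, 79.3 and 86.7 CPM in 68-week replicates 1 to 4, against 74.8, 82.3, 81.7 and 63.6 CPM in 12-week replicates 1 to 4. A single library, 12-week replicate 4, lay below the rest, and the other 7 fell within 74.8 to 86.7 CPM. The mean was 81.1 ± 4.14 CPM at 68 weeks and 75.6 ± 8.68 CPM at 12 weeks (SD, n = 4 each). The log2 fold change was 0.10 ± 0.081 (SE, adjusted p = 0.534, edgeR), with a 95% interval from 0.946-fold to 1.22-fold. Without 12-week replicate 4 the log2 fold change was 0.029. It was 0.16 with the airway covariate and -0.18 with the white adipocyte covariate. It was 0.36 among the 4 airway-poorest libraries and -0.0026 among the 4 airway-richest. The only 12-week library among the airway-poorest was replicate 4, the lowest of all for Ace. The 10 endothelial markers summed to 975 to 1211 CPM at 68 weeks and 1085 to 1460 CPM at 12 weeks. Over all 8 libraries, r of Ace was -0.609 with the log2 endothelial sum. Among the cell type sums compared, r was highest with the cardiomyocyte sum (0.773) and lowest with the brown adipocyte sum (-0.829). The part of these cell types in the values of Ace was not tested.

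Atp6ap2 (ENSMUSG00000031007, chromosome X, 12587801 to 12617049), the prorenin receptor gene, was at 23.3, 20.4, 21.2 and 22.0 CPM in 68-week replicates 1 to 4 and at 22.2, 25.1, 21.3 and 22.0 CPM in 12-week replicates 1 to 4. The means were 21.7 ± 1.24 CPM at 68 weeks and 22.6 ± 1.71 CPM at 12 weeks (SD, n = 4 each). The log2 fold change was -0.059 ± 0.067 (SE, adjusted p = 0.675, edgeR), and the 95% interval ran from 0.865-fold to 1.06-fold, the narrowest of the 6. The Atp6ap2 difference on the log2 scale was -0.054 with the airway covariate, -0.14 with the white adipocyte covariate, -0.0026 among the 4 airway-poorest libraries and -0.11 among the 4 airway-richest.

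Among the receptors, Agtr1a held nearly all counts of the angiotensin II receptor genes, 8222 over the 8 libraries beside 6 for Agtr2 and 0 for Agtr1b. Agtr1a (ENSMUSG00000049115, chromosome 13, 30336441 to 30382867) was at 38.2, 42.1, 34.6 and 35.1 CPM in 68-week replicates 1 to 4, against 27.9, 33.4, 32.1 and 36.9 CPM in 12-week replicates 1 to 4. Only 12-week replicate 4 reached into the range of the 68-week libraries. The mean was 37.5 ± 3.44 CPM at 68 weeks and 32.6 ± 3.69 CPM at 12 weeks (SD, n = 4 each). The log2 fold change was 0.20 ± 0.090 (SE, unadjusted p = 0.0492, adjusted p = 0.261, edgeR), with a 95% interval from 1.001-fold to 1.32-fold. Because the adjusted p was above 0.05, the difference was not called. It was 0.079 with the airway covariate and 0.31 with the white adipocyte covariate, and it was 0.063 among the 4 airway-poorest libraries and 0.16 among the 4 airway-richest. Agtr1a was lowest, at 27.9 CPM, in 12-week replicate 1, the library with the most airway counts. Over all 8 libraries, r of Agtr1a was -0.811 with the log2 airway sum and -0.728 with the log2 fibroblast sum. These were the values furthest from 0 among the cell type sums compared. The part of airway or fat tissue in the values of Agtr1a was not tested beyond the fits above, and that of fibroblasts was not tested.

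The paralog Agtr1b (ENSMUSG00000054988, chromosome 3, 20314473 to 20367177) had 0 counts in all 8 libraries. A count of 0 allows at most 3 counts per library, or 0.0884 to 0.129 CPM depending on the library. The AT2 receptor gene Agtr2 (ENSMUSG00000068122, chromosome X, 21484544 to 21489164) had 2, 1, 1 and 0 counts in 68-week replicates 1 to 4 and 0, 1, 1 and 0 counts in 12-week replicates 1 to 4. Both ages lay below the same limit, so no fold is given. Such limits cover counting error only.

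Mas1 (ENSMUSG00000068037, chromosome 17, 12841079 to 12868143), which encodes the Mas receptor, was present at 6 to 16 counts per library. It was at 0.530, 0.216, 0.483 and 0.327 CPM in 68-week replicates 1 to 4, and at 0.442, 0.539, 0.387 and 0.542 CPM in 12-week replicates 1 to 4. The lowest and the second lowest library were both at 68 weeks, and the ages overlapped. The mean was 0.389 ± 0.144 CPM at 68 weeks and 0.477 ± 0.0758 CPM at 12 weeks (SD, n = 4 each). Its log2 fold change was -0.29 ± 0.30 (SE, adjusted p = 0.651, edgeR). At this depth the 95% interval ran from 0.510-fold to 1.31-fold. For Mas1 the log2 difference was -0.18 with the airway covariate, -0.045 with the white adipocyte covariate, -0.58 among the 4 airway-poorest libraries and 0.080 among the 4 airway-richest.

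Nr3c2 (ENSMUSG00000031618, chromosome 8, 76899442 to 77245012) encodes the mineralocorticoid receptor, the transcription factor that aldosterone activates. It was at 45.2, 43.5, 45.3 and 38.2 CPM in 68-week replicates 1 to 4 and at 40.6, 38.8, 35.1 and 46.3 CPM in 12-week replicates 1 to 4. The highest library of all was 12-week replicate 4, and the ages overlapped over most of their range. The mean was 43.1 ± 3.33 CPM at 68 weeks and 40.2 ± 4.65 CPM at 12 weeks (SD, n = 4 each). The log2 fold change was 0.098 ± 0.086 (SE, adjusted p = 0.577, edgeR), with a 95% interval from 0.936-fold to 1.22-fold. It was 0.078 with the airway covariate and 0.43 with the white adipocyte covariate (adjusted p = 0.481, edgeR). It was -0.13 among the 4 airway-poorest libraries and 0.25 among the 4 airway-richest. The only 12-week library among the airway-poorest was replicate 4, the highest of all for Nr3c2. Exons of Ace and Nr3c2 overlap those of predicted genes on the opposite strand, Gm11651 and Gm10649, which had 24 and 44 counts over all 8 libraries. Airn, on the strand opposite to Mas1, overlaps the span of Mas1 but not its exons, and had 1678 counts beside 102 for Mas1. The part of Airn RNA in the Mas1 counts was not tested. Whether strand entered the counting is not given in the sources used here.

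Per kilobase of exon, Ace and Agtr1a were the most abundant members and lay close together, at 15.3 ± 0.783 and 15.2 ± 1.40 CPM per kilobase at 68 weeks and at 14.3 ± 1.64 and 13.2 ± 1.5 CPM per kilobase at 12 weeks (SD, n = 4 each). Ace was above Agtr1a in 5 of 8 libraries, so this pair did not differ beyond its spread. Atp6ap2 followed with 8.30 ± 0.473 CPM per kilobase at 68 weeks and 8.65 ± 0.652 at 12 weeks, and Nr3c2 with 6.65 ± 0.514 at 68 weeks and 6.21 ± 0.718 at 12 weeks. Agt had 3.71 ± 0.740 CPM per kilobase at 68 weeks and 3.97 ± 1.36 at 12 weeks. Mas1 had 0.149 ± 0.0550 at 68 weeks and 0.182 ± 0.0289 at 12 weeks. From Agtr1a to Agtr2, each gene in this order exceeded the next in 8 of 8 libraries, and the order was the same at both ages.

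**Figure D2:**
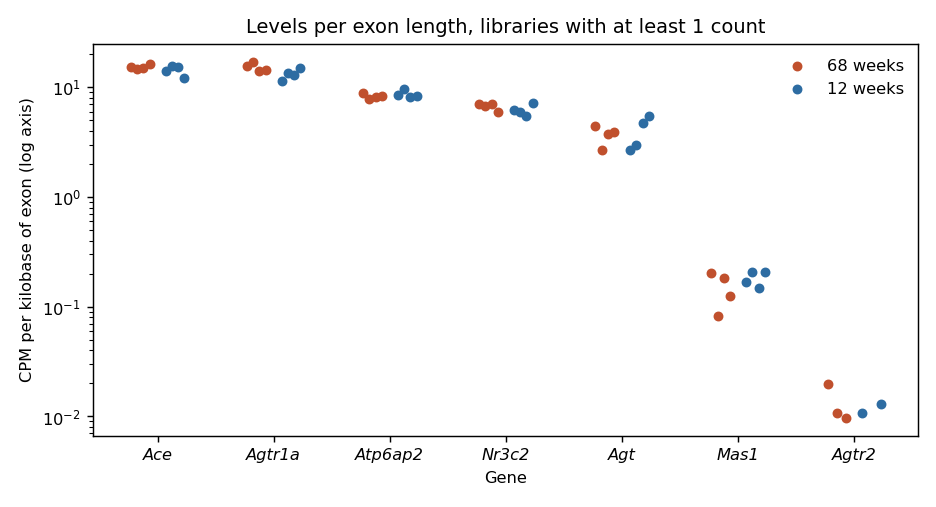
CPM per kilobase of exon on a log axis for the 7 members with any count, ordered by level, in libraries at 68 weeks (red, left) and at 12 weeks (blue, right), 1 point per library with at least 1 count. Ace and Agtr1a overlap near 15 CPM per kilobase, while Mas1 lies below 0.21 and Agtr2 below 0.020 CPM per kilobase.

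The genes most like each member across the 8 libraries were found by Pearson r of log2 CPM among 13509 genes whose mean log2 CPM was not below 0. They are a description of these libraries, which differ in airway and fat transcripts, and the highest r among so many genes is high by selection. Closest to Agt was H2-Ke6 (r = 0.960), to Ace Cfl1 (r = 0.966), to Agtr1a Lonp2 (r = 0.978) and to Nr3c2 Hnmt (r = 0.958). Closest to Mas1 was Prrc1 (r = 0.964) and to Atp6ap2 Ptgis (r = 0.962), each over 8 libraries. The other genes nearest by the same measure were Tfcp2 and Zscan22 for Agt, Gm17501 and Chka for Ace, Ddit4 and Trdn for Agtr1a, Lipa and Hdac11 for Nr3c2, Nsmf and Serpine2 for Mas1 and Nelfb and Bicdl1 for Atp6ap2. Taken as deviations from the mean of each age, r stayed between 0.937 and 0.977 for these 18 genes.

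Around the members, 84 pathway genes in 5 lists were examined, of which 72 were tested. The counts were 1 higher and 1 lower at 68 weeks by edgeR over all genes, against 1.61% higher and 1.22% lower of all genes tested. At an unadjusted p under 0.05, 13 were higher and 9 lower, against 9.26% and 9.77% of all genes. By DESeq2 4 were called higher and 4 lower, against 3.46% and 2.67% of all genes, and on the genes edgeR tested again 4 and 4, against 3.48% and 2.80%. The lists were chosen with earlier results of these data known.

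**Figure D3:**
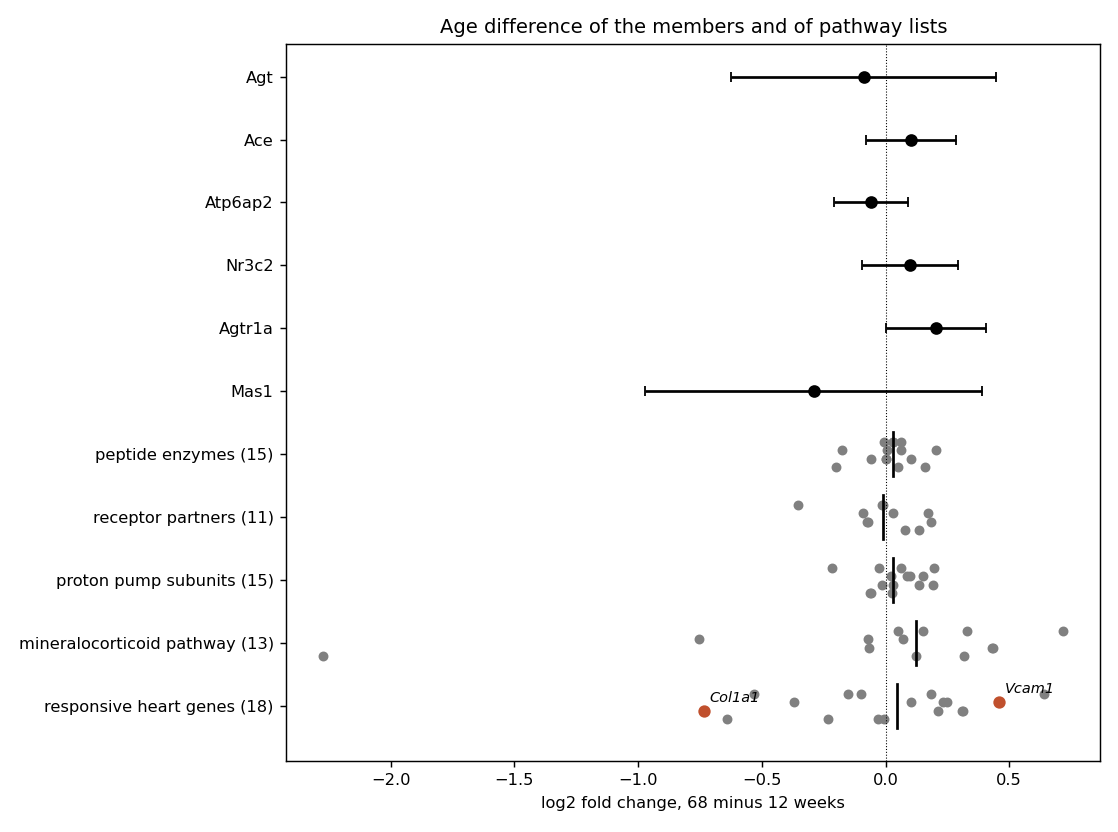
Log2 fold change (68 minus 12 weeks, x axis) of the 6 tested members with 95% intervals, and of the tested genes of 5 pathway lists as points, with a vertical bar at each list's median and the number of genes in brackets. The members lie between -0.29 and 0.20, and Vcam1 and Col1a1, both in the last list, are the called genes (red).

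Of 17 renin and peptide-cleaving enzymes, 15 were tested and 0 were called by edgeR, with a median log2 fold change of 0.029. At an unadjusted p under 0.05, 1 was higher and 2 were lower, against 9.26% and 9.77% of all genes tested. DESeq2 called 0. Renin itself, Ren1, was scarce in these hearts. It had 36, 6, 10 and 1 counts in 68-week replicates 1 to 4, against 2, 8, 0 and 13 counts in 12-week replicates 1 to 4, and was below the filter. 68-week replicate 1 alone held 36 of the 76 counts. The chymase genes of mast cells Cma1 and Mcpt4, whose products can also release angiotensin II, had log2 fold changes of 0.064 ± 0.27 and 0.063 ± 0.19 (SE). The enzymes with the smallest p were the aminopeptidase gene Rnpep (-0.18 ± 0.050, adjusted p = 0.0932 by edgeR), the carboxypeptidase gene Prcp (-0.20 ± 0.058, adjusted p = 0.105), the cathepsin gene Ctsd (0.16 ± 0.061, adjusted p = 0.198) and the neurolysin gene Nln (0.10 ± 0.056, adjusted p = 0.350), as log2 fold change ± SE. Rnpep was at 25.0 to 27.5 CPM in the 68-week libraries, against 29.1 to 31.9 CPM in the 12-week libraries. Its ages did not overlap, and neither did those of Prcp and Ctsd, against 12.1% of all genes tested without overlap.

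Of 14 receptor partners, 11 were tested and 0 were called by edgeR or DESeq2. At an unadjusted p under 0.05, 1 was higher and 1 lower, against 9.26% and 9.77% of all genes tested. Agtrap, which encodes a protein that binds the AT1 receptor and promotes its internalization, had a log2 fold change of -0.011 ± 0.059 (SE), and Mtus1, which encodes an AT2 receptor-interacting protein, 0.079 ± 0.064. The smallest p values were those of the G protein gene Gna11 (0.13 ± 0.041, adjusted p = 0.117, edgeR) and of Rgs2, a brake on signalling by Gq-coupled receptors (-0.35 ± 0.13, adjusted p = 0.191). The kinase gene Grk5 (0.18 ± 0.11) and the arrestin gene Arrb1 (-0.092 ± 0.069) were next. Mrgprd, encoding a receptor for a related heptapeptide, had 0 counts in all libraries, and the bradykinin receptor genes Bdkrb1 and Bdkrb2 had 18 and 69 counts over all 8 libraries.

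All 15 subunit genes of the vacuolar proton pump, the complex with which the prorenin receptor associates, were tested and 0 were called by edgeR, with a median log2 fold change of 0.032. At an unadjusted p under 0.05, 4 were higher and 1 was lower, against 9.26% and 9.77% of all genes tested. DESeq2 called 1 higher and 0 lower, against 3.46% and 2.67% of all genes. The smallest p was that of Atp6v0a2, at 118, 120, 124 and 125 CPM in 68-week replicates 1 to 4 against 99.5, 106, 113 and 107 CPM in 12-week replicates 1 to 4. Its ages did not overlap, as in 12.1% of all genes tested. Its log2 fold change of 0.19 ± 0.049 did not pass (SE, adjusted p = 0.0717, edgeR), while DESeq2 called it (adjusted p = 0.00766). Atp6v1b2 (-0.22 ± 0.080), Atp6v1c1 (0.099 ± 0.038) and Atp6v1d (0.13 ± 0.056) had adjusted p of 0.187 to 0.234.

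On the aldosterone side, 13 of 19 genes were tested and 0 were called by edgeR, with a median log2 fold change of 0.12. At an unadjusted p under 0.05, 4 were higher and 1 was lower, against 9.26% and 9.77% of all genes tested. DESeq2 called 2 higher and 1 lower, against 3.46% and 2.67% of all genes. The adrenal enzymes of corticosteroid synthesis were at or near 0: Cyp11b2, the aldosterone synthase gene, and Cyp11b1 had 0 counts and Cyp21a1 had 1 count over all 8 libraries. Hsd11b2, whose enzyme protects the mineralocorticoid receptor from glucocorticoids in kidney, had 42 counts over all libraries. The glucocorticoid receptor gene Nr3c1 was at 19.2 CPM per kilobase at 68 weeks and 20.1 at 12 weeks, above Nr3c2, and had a log2 fold change of -0.067 ± 0.054 (SE, adjusted p = 0.535, edgeR).

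Among known targets of these steroid receptors, the chaperone gene Fkbp5 was at 29.8, 29.4, 27.6 and 31.8 CPM in 68-week replicates 1 to 4, against 16.6, 21.4, 25.2 and 24.8 CPM in 12-week replicates 1 to 4. All 68-week libraries were above all 12-week libraries, and 12.1% of all genes tested were likewise free of overlap between the ages. The log2 fold change of 0.43 ± 0.12 did not pass (SE, adjusted p = 0.0874, edgeR). The kinase gene Sgk1 was at 55.3, 75.95, 53.8 and 57.4 CPM in 68-week replicates 1 to 4, against 45.0, 39.1, 55.2 and 40.8 CPM in 12-week replicates 1 to 4, and its log2 fold change was 0.43 ± 0.13 (SE, adjusted p = 0.122, edgeR). DESeq2 called both (adjusted p = 0.0141 and 0.0247). With the airway covariate the log2 differences by edgeR were 0.30 for Fkbp5 and 0.36 for Sgk1. With the white adipocyte covariate they were 0.27 and 0.47, and neither gene was called in these fits. Per1, also a clock gene, was at 77.9, 94.2, 70.0 and 68.6 CPM in 68-week replicates 1 to 4, against 26.2, 36.7, 53.3 and 72.8 CPM in 12-week replicates 1 to 4 and was not called (0.72 ± 0.27 on the log2 scale, SE, adjusted p = 0.185, edgeR). The 12-week libraries spread widest, and replicate 4 lay within the range of 68 weeks. The log2 difference of Per1 was 0.43 with the airway covariate and 1.15 with the white adipocyte covariate. It was 0.14 among the 4 airway-poorest libraries and 0.86 among the 4 airway-richest. The only 12-week library among the airway-poorest was replicate 4, the highest of its age for Per1. Tsc22d3 (0.32 ± 0.14), chosen after its values were seen, was not called either. Orm1, encoding an acute-phase plasma protein, was at 0.0298 to 0.354 CPM at 68 weeks and 0.503 to 1.12 CPM at 12 weeks. It had a log2 difference of -2.27 ± 0.56 (SE, adjusted p = 0.0668, edgeR) on 1 to 38 counts per library. DESeq2 called Orm1 lower (adjusted p = 0.00879). The log2 difference of Orm1 was -1.94 with the airway covariate and -0.46 with the white adipocyte covariate.

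The epithelial sodium channel, the classical aldosterone effector in kidney, was seen mainly in the libraries with airway transcripts. Scnn1a was at 1.16, 0.757, 4.38 and 1.07 CPM in 68-week replicates 1 to 4, and at 5.92, 3.12, 2.24 and 1.05 CPM in 12-week replicates 1 to 4. Within each age, the libraries had the same order by Scnn1a as by the airway sums given above. Scnn1b had 1, 1, 6 and 0 counts in 68-week replicates 1 to 4 and 24, 6, 14 and 3 counts in 12-week replicates 1 to 4. Scnn1g had 3, 1, 11 and 0 counts at 68 weeks and 19, 6, 6 and 5 counts at 12 weeks. For both genes the highest library of each age was also the one with the most airway counts. Scnn1a was not called (-0.75 ± 0.62, adjusted p = 0.548, edgeR), and both other subunits were too low to test. The part of airway tissue in these counts was not tested.

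Of 19 genes known to respond to angiotensin II or aldosterone in heart or vessels, 18 were tested, with a median log2 fold change of 0.047. By edgeR 1 rose and 1 fell, against 1.61% higher and 1.22% lower of all genes tested. At an unadjusted p under 0.05, 3 were higher and 4 were lower, against 9.26% and 9.77% of all genes tested. DESeq2 called 1 higher (Vcam1) and 3 lower (Col1a1, Col3a1 and Fn1), against 3.46% and 2.67% of all genes. Vcam1, the endothelial adhesion molecule gene, rose to 45.6, 35.4, 37.0 and 46.1 CPM in 68-week replicates 1 to 4, against 28.5, 32.0, 27.6 and 31.3 CPM in 12-week replicates 1 to 4 (log2 fold change 0.46 ± 0.096, SE, adjusted p = 0.0404, edgeR). Col1a1, encoding a chain of type I collagen, fell to 186, 123.5, 179 and 180 CPM in 68-week replicates 1 to 4, against 344, 293, 250 and 225 CPM in 12-week replicates 1 to 4 (-0.73 ± 0.16, adjusted p = 0.0427, edgeR). Neither gene's ages overlapped, as in 12.1% of all genes tested.

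Both calls were close to the threshold. With airway markers as a covariate the log2 fold changes were 0.38 for Vcam1 (adjusted p = 0.20) and -0.53 for Col1a1 (adjusted p = 0.232), both no longer called by edgeR. Vcam1 stayed called without 68-week replicate 2 or 3 and lost its call without any 1 of the other 6 libraries (adjusted p = 0.0586 to 0.0999), and Col1a1 kept its call only without 12-week replicate 4 and lost it without any 1 of the other 7 (adjusted p = 0.0641 to 0.0964). Col3a1, encoding the chain of type III collagen, was at 167 to 280 CPM at 68 weeks and 315 to 422 CPM at 12 weeks (-0.64 ± 0.15, adjusted p = 0.0592, edgeR). Fn1, the fibronectin gene, was at 88.0 to 110 CPM at 68 weeks and 103 to 163 CPM at 12 weeks (-0.53 ± 0.14, adjusted p = 0.0777, edgeR). The 9 fibroblast markers summed to 1885 to 2232 CPM at 68 weeks and 2307 to 2383 CPM at 12 weeks. Of the 9, 1 was called lower by edgeR, Pi16, against 1.22% of all genes tested. The part of fibroblasts in the collagen values was not tested.

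**Figure D4:**
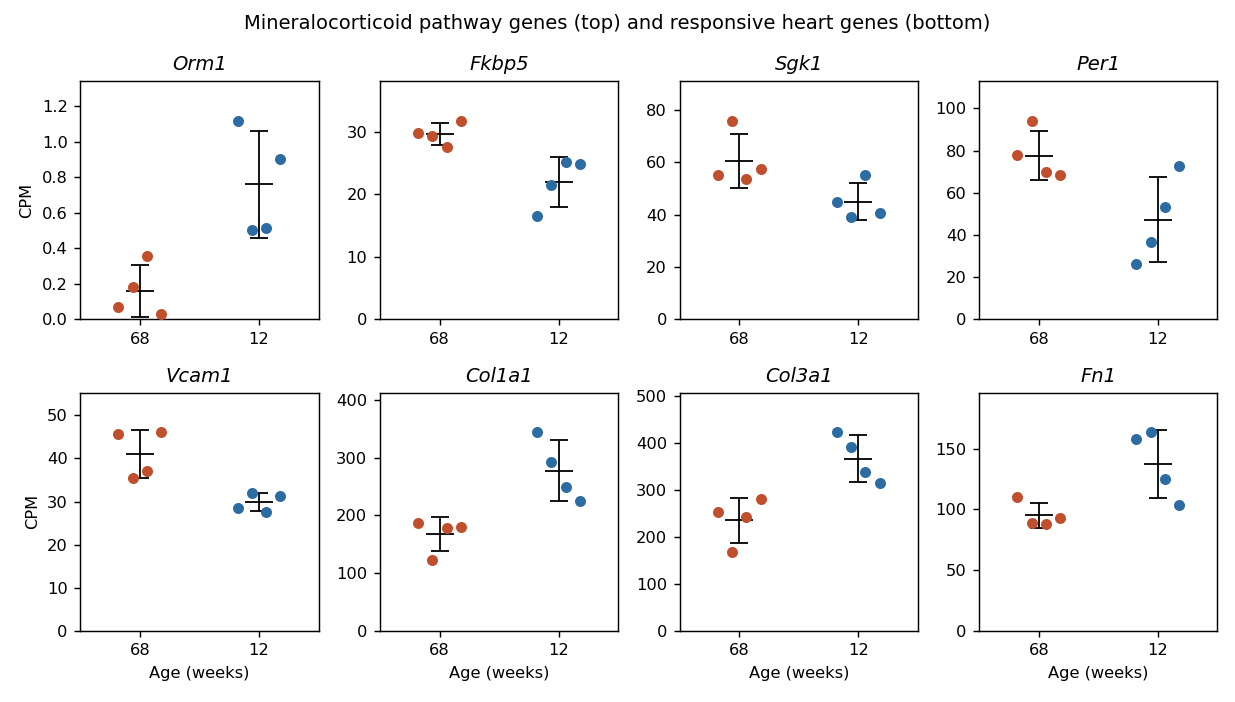
CPM by library at 68 weeks (red) and 12 weeks (blue), with mean and SD of 4 libraries each, for the 4 genes with the smallest p of the mineralocorticoid pathway list (top) and of the responsive heart gene list (bottom). Vcam1 rose and Col1a1 fell by edgeR, and the other 6 did not pass.

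In the H3K27me3 lists, which hold regions the authors name as unique to an age, 1 of the 8 members was linked to a region. Agtr1a was linked at 68 weeks to a 225-base region on chromosome 13, 30522475 to 30522699 as the list gives it. The authors' enrichment score of that region was 5.49, which ranked 1047 of 3433 regions, and the list's median was 4.77. At 12 weeks 0 members were linked, and 0 of the 84 pathway genes were linked at either age. By comparison, 2.40% of genes in the count table were linked to a 68-week region and 1.06% to a 12-week region. RNA of Agtr1a was 37.5 CPM at 68 weeks and 32.6 CPM at 12 weeks, a difference that was not called.

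The listed region lies 140 kb past the end of Agtr1a as the count tables place that gene. The authors' lists hold 1853 links at 68 weeks and 767 at 12 weeks. Over both lists, 2479 links name a gene of the count tables, each joining a region and a gene of the same chromosome. The region touched its linked gene in 20.6% of these 2479 links, and a median of 113 kb separated the others. These values do not settle the build of the region coordinates, and no sequence of the region is shown. Placing regions by coordinates instead put 1 on Mas1 at 68 weeks (chromosome 17, 12858130 to 12858508, score 12.0), which the authors linked to no gene, and dropped Agtr1a. Each region has a single score for its age, and so carries no replicate error.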

How the data were processed

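The authors deposited raw read counts for each gene (whole numbers, with no normalization), per the file headers. Trimmomatic 0.36, STAR 2.5.2b, featureCounts of Subread 1.5.2 and DESeq2 are named for the series, with build mm10, per the submitters' processing notes, without their roles. The region lists of the authors carry a score per region, named enrichment, with no stated scale. MACS3 3.0.0b1, Bowtie2 2.4.2, Trim Galore 0.6.5, SAMtools 1.14 and Picard 2.26.2 are named too. The 8 per-library files equalled the series table, and 174 of 49315 genes had no symbol.

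The main test was the quasi-likelihood test of edgeR 4.0.16 (R 4.3.3, TMM, filterByExpr, age alone, all 8 libraries, Benjamini-Hochberg adjustment over 15947 genes, threshold 0.05). DESeq2 1.42.0 was an alternative. SEs were derived from the F statistic of each gene, so they and the 95% intervals are approximate. CPM are counts scaled to the TMM-normalized library size, and per kilobase means per kilobase of the exon length in the count files. In simulated data of 68 against 12 weeks (15684 genes tested), the share of altered genes found by edgeR was 8.33% at 1.25-fold, 58.0% at 1.5-fold, 77.6% at 2-fold and 86.0% at 4-fold, and 4.20% of 119 calls were false. No library looked like a second deposit of another (the smallest chi-square within an age was 17.3 per degree of freedom).

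The members and lists were chosen with earlier results of these data known. Some pathway genes and a planned ratio are not reported here. Named genes were all members, Ren1, the called pathway genes, the 4 smallest p of each pathway list and the 3 genes most like each tested member by r. Other pathway genes named (Cma1, Mcpt4, Agtrap, Mtus1, Nr3c1, Tsc22d3, the Scnn1 genes and those at or near 0 counts) were chosen after their values were seen. Alternatives were other scaling, other filters, DESeq2, airway or white adipocyte markers as a covariate, libraries split by airway counts, the replicate number as a block and leaving out each library.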

Additional observations from a re-analysis of the deposited data

Results flagged for a closer look

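In 56 groups of 4 libraries (a gene at an age), 2 held a library that stood apart from the other 3 by Dixon's criterion, and chance flags about 1 group in 20. Sgk1 was high in 68-week replicate 2, at 75.95 CPM, against 53.8 to 57.4 CPM in the remaining 68-week libraries. Col1a1 was low in the same library, at 123.5 CPM, against 179 to 186 CPM in the others.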

How the results depend on the processing

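Members called numbered 0 in each direction under all 19 alternatives (Mas1 was not tested with a minimum of 1 CPM in 4 libraries), and the smallest adjusted p of a member was 0.146 (Agtr1a without 12-week replicate 4). Signs of uncalled genes turned as follows. With white adipocyte markers as a covariate, the log2 fold change was 0.046 for Agt and -0.18 for Ace. Among the 4 airway-richest libraries it was 0.13 for Agt, -0.0026 for Ace and 0.080 for Mas1, and among the 4 airway-poorest, -0.13 for Nr3c2, -0.084 for Grk5 and 0.036 for Atp6v1b2. Agt turned to 0.036, 0.0043 and 0.11 without 68-week replicate 2, 12-week replicate 3 or 12-week replicate 4.

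Of all genes, 256 were higher and 195 lower. These were 74 and 22 with the airway covariate, 1 and 0 with the adipocyte covariate, 10 and 23 among the 4 airway-poorest libraries, 4 and 1 among the 4 airway-richest, 568 and 439 by DESeq2, 555 and 446 by DESeq2 on the genes edgeR tested (added after seeing the data), and 117 to 209 higher and 52 to 154 lower without 1 library. Pathway genes, 1 higher and 1 lower, numbered 0 and 0 in both airway splits and with either covariate, 0 higher by library size alone, 3 and 4 without a filter, 4 and 4 by DESeq2, also on the genes edgeR tested, and 0 to 1 higher and 0 to 3 lower without 1 library. The adipocyte sums of the ages did not overlap, so age and the adipocyte covariate cannot be told apart. The SE of Agt was 0.49 with that covariate, against 0.24 in the main fit. Apart from this and the smaller number of libraries where some were left out, the cause was not tested.

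With the replicate number as a block the counts were 112 higher and 48 lower over all genes, and 0 and 0 in the pathway. Same-numbered libraries correlated from -0.243 to 0.330 in their deviations, so the numbers were not taken as pairs. Regions placed by coordinates gave 3 pathway genes in place of 0. Depth limits Agtr1b, Agtr2, Mas1 and Ren1.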
